A study of Mus musculus with 13 samples.

Results

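The genes described here are 29 mouse transcription factor genes of the Pax, Six-family, Iroquois (Irx), Otx and paired-type families: Pax1, Pax2, Pax3, Pax5, Pax7, Pax8, Pax9, Six2, Six3, Six4, Six5, Six6, Otx1, Otx2, Pitx1, Pitx3, Gsc, Irx1, Irx2, Irx3, Irx4, Irx5, Irx6, Prrx1, Prrx2, Alx1, Alx4, Shox2 and Phox2a. They were chosen by name from 25183 genes listed in the count tables, and 28 of the 29 were found. 27 were listed for both sequencing runs, Irx6 was listed for run 385 only, and Six6 was not analysed here. RNA was sequenced from mouse small intestinal crypts, the epithelial pockets that hold the stem and Paneth cells, and from organoids, epithelial cultures grown from crypts. All 13 libraries, WT included, came from tissue or cultures exposed to beta-naphthoflavone, which switches on the AhCre recombinase where it is carried.

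The crypt groups were WT (n = 3), Eed-/- (Eed KO, n = 3) and Ezh2-/- (Ezh2 KO, n = 3). The crypts came from 12-week-old mice of a mixed C57BL/6-FVB background that had received beta-naphthoflavone for 6 weeks. The organoid groups were WT (n = 2, labelled FVB) and Eed KO (n = 2, labelled C57BL/6-FVB), both after 10 days of the same compound, so strain label and genotype cannot be told apart in organoids. Organoid labels and those of run 440 crypts name AhCre, with floxed Eed or Ezh2 alleles in the knockouts. AhCre is driven by a Cyp1a1 promoter that the compound induces in intestinal epithelium. Libraries are named here by group, run and title number, as in Eed KO crypts 385_1. Run 385 held 2 WT and 2 Eed KO crypt libraries and all organoids, and run 440 held 1 WT, 1 Eed KO and all 3 Ezh2 KO crypt libraries. Whether the libraries of 1 group derive from different mice or cultures is not in the labels, and p-values therefore measure only the spread between libraries, which may be technical.

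Eed and Ezh2 are subunits of Polycomb repressive complex PRC2, which methylates histone H3 at lysine 27. In many differentiated tissues PRC2 keeps developmental transcription factor genes silent, and genes of the families described here are among its classic targets in embryonic stem cells. Pax proteins bind DNA through a paired domain and pattern the kidney, nervous system, skeleton and glands. Six-family proteins act with Eya co-activators in eye, muscle, ear and kidney development. Otx, Pitx and Gsc carry a related homeodomain and act in the head and the early body axis, Irx factors pattern the nervous system, heart and limb, and Prrx, Alx and Shox2 act in limb and craniofacial mesenchyme.

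RefSeq promoters (build GRCm38.p6) were matched by symbol for 21 members, Six6 among them, with 27 start sites in all, and the 250 bases before each start were read. CpG dinucleotides, which cluster at many Polycomb-bound promoters, were counted as the letters CG on the strand of the gene. GC content of at least 50% together with an observed over expected CpG ratio of at least 0.6 was met by 15 of the 27 windows (55.6%), against 31.0% of all 32851 promoter windows of the same length. The median window held 13 CpGs among the members and 6 among all promoters. The windows below are shown because they span that range without overlapping an annotated exon. They are written in lower case, 5′ to 3′ on the strand of the gene, with each CpG in capitals. The first belongs to Irx2 (chr13:72628570-72628819, plus strand, 19 CpGs) and the next to Pax9 (chr12:56695221-56695470, plus strand, 7 CpGs), 2 genes that rose in Eed KO crypts and organoids. The third belongs to Phox2a (chr7:101818063-101818312, plus strand, 22 CpGs), which had a single count in all 13 libraries. The last belongs to Pax8 (chr2:24475600-24475849, minus strand, 6 CpGs), which passed no test with all libraries in.
Irx2: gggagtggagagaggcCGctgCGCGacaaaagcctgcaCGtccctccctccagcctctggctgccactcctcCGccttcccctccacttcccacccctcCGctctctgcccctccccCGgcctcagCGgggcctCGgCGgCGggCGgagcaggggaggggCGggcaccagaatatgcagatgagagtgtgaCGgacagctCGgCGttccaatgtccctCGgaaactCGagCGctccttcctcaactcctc
Pax9: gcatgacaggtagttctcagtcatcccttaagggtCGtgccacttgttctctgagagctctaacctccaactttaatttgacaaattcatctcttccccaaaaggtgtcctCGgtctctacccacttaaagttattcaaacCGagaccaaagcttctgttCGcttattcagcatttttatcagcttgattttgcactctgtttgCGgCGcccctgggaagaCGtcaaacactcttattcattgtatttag
Phox2a: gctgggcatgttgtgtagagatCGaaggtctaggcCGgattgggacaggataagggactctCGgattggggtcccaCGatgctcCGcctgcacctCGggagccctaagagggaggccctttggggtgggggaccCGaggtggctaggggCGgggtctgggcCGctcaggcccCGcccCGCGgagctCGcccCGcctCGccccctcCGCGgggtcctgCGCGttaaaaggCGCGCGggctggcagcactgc
Pax8: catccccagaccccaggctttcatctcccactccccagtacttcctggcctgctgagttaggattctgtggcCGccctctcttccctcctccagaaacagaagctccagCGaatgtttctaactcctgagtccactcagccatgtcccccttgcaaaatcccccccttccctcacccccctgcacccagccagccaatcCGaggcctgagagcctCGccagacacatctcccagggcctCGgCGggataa
The Irx2 and Phox2a windows met both sequence criteria, and the Pax9 and Pax8 windows did not. The Pax9 window lies inside the deposited span of the gene (chr12:56691767-56712822), as do windows of Pax1 and Six3, among others. It is therefore not the sequence before the first base of that span, which was not read. Of the members with a promoter window, 6 of the 10 genes that rose in Eed KO crypts had a start site past both criteria, and 7 of the 11 others did, Six6 included. Of these others only Pax5, Pax8, Prrx1 and Six4 were tested in crypts, so they are not a set of genes that failed to rise. These counts describe the windows and were not tested.

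Libraries held 11421666 to 18300644 counts. Levels are counts-per-million values (CPM) on library sizes scaled by the trimmed mean of M values (TMM). Eed was at 54.4 ± 5.23 CPM (SD, n = 3) in WT crypts and 19.0 ± 5.14 in Eed KO crypts, and at 67.8 ± 7.82 (n = 2) and 24.8 ± 7.97 in WT and Eed KO organoids. Ezh2 was at 85.9 ± 12.2 CPM in WT crypts and 19.1 ± 2.29 in Ezh2 KO crypts (SD, n = 3). By Xist and the Y-linked gene Ddx3y, the 2 run 385 WT crypt libraries and both Eed KO organoid libraries showed a male pattern. The other 9 showed a female pattern. In organoids and in run 385 crypts the sex pattern thus went with genotype, and they cannot be told apart there. The part of the sex pattern in the results was not tested. The epithelial markers Epcam, Cdh1, Krt8, Krt18, Vil1, Cdx2 and Cldn7 had counts in every group, with a summed level of 3689 to 6820 CPM in Eed KO crypts and 5554 to 6846 CPM in WT crypts. Epcam, at 1430 ± 181 CPM in WT and 875 ± 174 in Eed KO crypts, and Cdx2, at 197 ± 19.3 and 58.6 ± 44.98 CPM (SD, n = 3), were lower in Eed KO crypts (adjusted p = 0.00689 and 0.00365, edgeR). So were 3 of 4 Paneth cell markers (Lyz1, Itln1 and Ang4), with a summed level of 59042 to 75613 CPM for the 4 in WT and 9172 to 14789 in Eed KO crypts, and 2 of 4 stem cell markers (Lgr5 and Olfm4), at 4052 to 4303 and 619 to 1023 CPM. The part of these shifts in the members' levels was not tested. Mitochondrial genes took 3.71% to 18.0% of the counts in Eed KO crypts and 8.65% to 14.5% in WT crypts.

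The members were largely silent without the Eed deletion. Between 11 and 12 of them had any count in a WT crypt library, 8 to 10 in an Ezh2 KO crypt library and 7 to 9 in a WT organoid library. In Eed KO crypts 24 to 26 members had a count per library, and in Eed KO organoids 23 to 24 did. Summed over the members, the level was 40.1 to 50.2 CPM in WT crypts, 44.6 to 49.2 in Ezh2 KO crypts and 187 to 250 in Eed KO crypts. It was 43.1 to 47.1 CPM in WT organoids and 87.1 to 87.6 in Eed KO organoids, so the Eed KO libraries lay apart from the others in both tissues. Pitx1 alone made up 20.1 to 27.4 of the CPM in WT crypts.

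**Figure D1:**
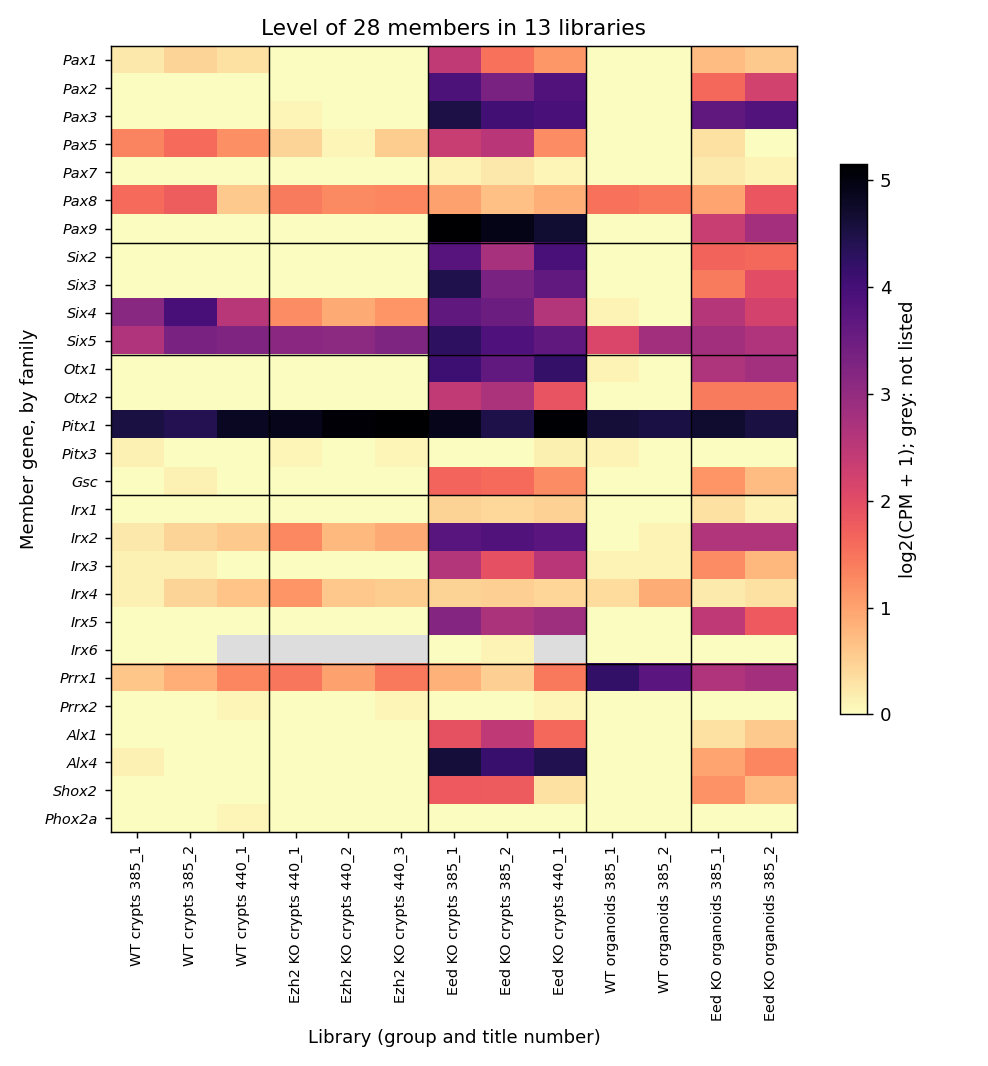
Level of the 28 listed members, as log2(CPM + 1), in each of the 13 libraries, with members ordered by family and libraries by group. Pitx1, Six5 and Pax8 have colour in every group, whereas most other members are pale outside the Eed KO crypts and Eed KO organoids.

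The first comparison asked which members respond to loss of Eed in crypts. 20 members had enough counts for the edgeR quasi-likelihood test with sequencing run as a covariate, and 15 of them were higher in Eed KO than in WT crypts at an adjusted p (Benjamini-Hochberg, over all genes) under 0.05. They were Pax1, Pax2, Pax3, Pax9, Six2, Six3, Six5, Otx1, Otx2, Gsc, Irx2, Irx3, Irx5, Alx1 and Alx4. No member was lower. Of all 14406 genes tested, 13.4% were higher and 10.6% lower. The median fitted log2 fold change was 7.26 over the 20 members and -0.04 over all genes, and the members' median log2 ratio was 5.90 with the 9 members at 0 in WT crypts set to their lower bound. These bounds take a floor of 3 counts over the WT group and, like the intervals below, cover counting error only. Those 9 members reached the minimum counts only through the Eed KO libraries, so they could only come out higher. The count of 15 and the members' medians are raised by this and are a description. Because RNA came from whole crypts, expression in more cells and more RNA per cell cannot be told apart. Of the 8 members listed but not tested, Pax7, Pitx3, Irx1, Irx4, Prrx2, Shox2 and Phox2a did not reach the minimum counts, and Irx6, listed for run 385 only, was left out of the fit, so the 15 are not a share of the 29.

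**Figure D2:**
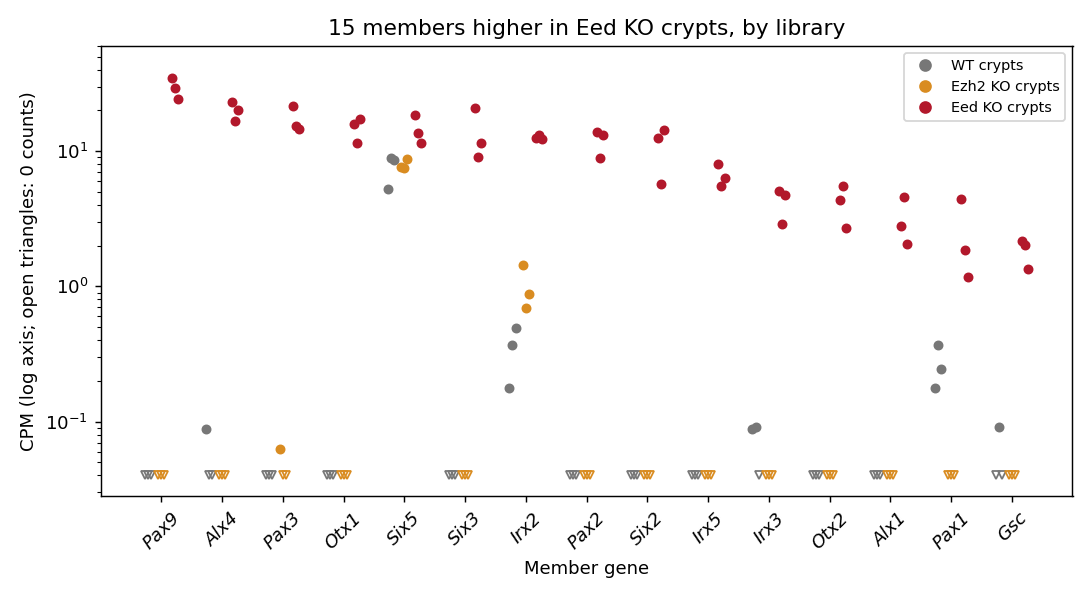
CPM (log axis) of the 15 members higher in Eed KO crypts, with 1 point per library for WT, Ezh2 KO and Eed KO crypts and open triangles for libraries at 0 counts. The Eed KO points lie above all WT and Ezh2 KO points for each of the 15, and Six5 is the only one with WT points above 1 CPM.

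Per kb of exon, Pax9 had the highest level of the 15 in Eed KO crypts, 5.83 CPM, followed by Six2 at 5.13. Pax9, a factor of pharyngeal pouch, tooth and skeletal development, was at 34.6, 29.4 and 24.5 CPM in Eed KO crypts 385_1, 385_2 and 440_1 (444, 348 and 417 counts). It had 0 counts in all WT and all Ezh2 KO crypts, so the groups did not overlap. The mean was 29.5 ± 5.06 CPM (SD, n = 3), at least 372-fold above WT (adjusted p = 0.000389, edgeR). Pax3, a neural crest and muscle precursor factor, was at 21.7, 15.4 and 14.6 CPM in Eed KO crypts and had no count in WT crypts, which puts it at least 218-fold higher (adjusted p = 0.000266, edgeR). Its only count in the Ezh2 KO libraries was 1, in 440_1. Pax2, a kidney and optic stalk factor, was at 13.9, 8.86 and 13.2 CPM with no count in WT crypts, an at least 156-fold higher level (adjusted p = 0.0013, edgeR).

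Of the other Pax genes, Pax1 rose and Pax8 and Pax5 did not pass the test. Pax1, the closest relative of Pax9 and a factor of the vertebral column, was at 4.44, 1.86 and 1.17 CPM in Eed KO crypts and at 0.178, 0.366 and 0.245 CPM in WT crypts. Its groups did not overlap, although the Eed KO libraries differed 3.78-fold among themselves. The log2 fold change was 3.08 ± 0.62 (SE, adjusted p = 0.0127, edgeR), and without WT crypts 385_2 the adjusted p was 0.0604. Pax7, a factor of muscle satellite cells, had 1, 2 and 1 counts in the 3 Eed KO crypt libraries and 0 in WT and Ezh2 KO crypts, too few for the test. Pax8, a thyroid and kidney factor, was at 1.64 ± 1.01 CPM in WT and 0.808 ± 0.211 in Eed KO crypts (SD, n = 3), with overlapping groups and an adjusted p of 0.312 (edgeR). Without Eed KO crypts 440_1 or without WT crypts 440_1, Pax8 was lower and passed the threshold (adjusted p = 0.0302 and 0.0381, edgeR).

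Pax5, the factor that defines the B cell lineage, differed between the Eed KO libraries. It was at 4.05 and 4.72 CPM in Eed KO crypts 385_1 and 385_2 and at 1.35 CPM in 440_1, against 1.51, 2.01 and 1.29 CPM in WT crypts. The run 440 value lay inside the WT range, and the adjusted p was 0.22 over both runs and 0.0376 within run 385 (edgeR). In Ezh2 KO crypts Pax5 was at 0.374, 0.0634 and 0.441 CPM, and Eed KO crypts were higher than Ezh2 KO crypts by 2.63 ± 0.67 on the log2 scale (SE, adjusted p = 0.0264, edgeR). The 6 immune markers Ptprc, Cd3e, Cd79a, Lyz2, Cd68 and Laptm5 summed to 59.9 to 70.9 CPM in WT crypts, 54.3 to 148 in Eed KO crypts and 24.3 to 34.6 in Ezh2 KO crypts, with a count for each of the 6 in each of those groups. In organoids they summed to at most 3.18 CPM with Cd3e at 0, and Pax5 had 3 and 0 counts in Eed KO and none in WT organoids. The part of immune cells in the Pax5 values was not tested.

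Six2 and Six3 had no count in any WT or Ezh2 KO crypt library. Six3, a forebrain and eye factor, was at 20.9, 9.11 and 11.4 CPM in Eed KO crypts and at 0 in all WT and Ezh2 KO crypts, at least 176-fold above WT (adjusted p = 0.00235, edgeR). Six2, which maintains nephron progenitors, was at 12.6, 5.74 and 14.3 CPM against 0 in both other crypt groups, at least 146-fold above WT (adjusted p = 0.00255, edgeR). Neither overlapped the other groups, and library 385_2 was the lowest of the Eed KO crypts for both.

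Six5 and Six4 were already expressed in WT crypts. Six5, a member best known for its place beside the myotonic dystrophy gene Dmpk, was at 5.24, 8.97 and 8.57 CPM in WT crypts 385_1, 385_2 and 440_1 and at 18.4, 13.7 and 11.5 CPM in Eed KO crypts. The groups did not overlap and the log2 fold change was 0.93 ± 0.27 (SE, adjusted p = 0.0393, edgeR). The fit without the Ezh2 KO libraries gave an adjusted p of 0.0998 (edgeR). With the replicate block, which treats same-numbered libraries as pairs, that fit gave 0.92 ± 0.36 with an adjusted p of 0.172 (edgeR). Leaving out Eed KO crypts 385_1 or 385_2 or WT crypts 385_1 or 385_2 gave adjusted p values of 0.0637 to 0.13. The log2 difference of the 2 libraries in run 440 was 0.45. Six4, a factor of muscle and sensory organ development, was at 7.82, 14.6 and 4.84 CPM in WT crypts and at 11.6, 10.2 and 5.10 in Eed KO crypts, with overlapping groups. The log2 fold change had an SE of 0.29 and an adjusted p of 0.993 (edgeR), and the ratio of the summed levels was 1.01 (95% counting interval 0.865 to 1.17).

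The Otx genes and Gsc rose, and the 2 Pitx genes did not pass the test or were not tested. Otx1, a cortex and inner ear factor, was at 15.8, 11.5 and 17.4 CPM in Eed KO crypts and at 0 in all WT and Ezh2 KO crypts, at least 196-fold above WT (adjusted p = 0.000894, edgeR). Otx2, which specifies the anterior head, was at 4.36, 5.57 and 2.70 CPM against 0, at least 51.7-fold above WT (adjusted p = 0.00267, edgeR). Gsc (goosecoid), the classic gene of the gastrula organizer, was at 2.18, 2.02 and 1.35 CPM. With 75 counts in Eed KO against 1 in WT crypts, its ratio was 69.2 (95% counting interval 12.1 to 2770, adjusted p = 0.00303, edgeR). All 3 genes were separated from WT and Ezh2 KO crypts in every library.

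Pitx1, a hindlimb and pituitary factor, had the highest level per length of any member in WT crypts, at 8.76 CPM per kb of exon. It was at 22.3, 20.1 and 27.4 CPM in WT, 28.7, 21.3 and 33.7 in Eed KO and 32.2 ± 2.86 (SD, n = 3) in Ezh2 KO crypts. The WT and Eed KO ranges overlapped, the log2 fold change was 0.27 ± 0.16 and the adjusted p was 0.278 (edgeR). Pitx3, a lens and dopamine neuron factor, had at most 2 counts in any library.

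Irx2, Irx3 and Irx5 rose, Irx1 and Irx4 stayed below the minimum counts, and Irx6 was not in the fit. Irx2, a neural and limb patterning factor, was at 12.5, 13.2 and 12.3 CPM in Eed KO crypts against 0.178, 0.366 and 0.490 in WT crypts, a log2 fold change of 5.16 ± 0.42 (SE, adjusted p = 0.000176, edgeR). Its coefficient of variation over the Eed KO crypts, 3.81%, was the lowest of the members with at least 30 counts there. Irx5, a cardiac and retinal factor, was at 8.10, 5.57 and 6.34 CPM against 0 in WT and Ezh2 KO crypts, at least 85.5-fold above WT (adjusted p = 0.0019, edgeR). Irx3, its neighbour on chromosome 8, was at 5.06, 2.87 and 4.75 CPM with 2 counts in all WT crypts, a ratio of 83.1 (95% counting interval 22.7 to 691, adjusted p = 0.00175, edgeR). Irx1 had 5, 4 and 7 counts in the Eed KO crypts, 0 in WT and Ezh2 KO crypts and in WT organoids, and 3 and 1 in Eed KO organoids. In crypts it was tested only without the low-count filter, where its adjusted p was 0.0291. Irx4, a factor of ventricular heart muscle, had 16 counts in Eed KO, 14 in WT and 34 in Ezh2 KO crypts, a ratio to WT of 1.05 (95% counting interval 0.482 to 2.33). Irx6 had 1 count, in Eed KO crypts 385_2.

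On chromosome 13 of GRCm38, Irx1, Irx2 and Irx4 lie in that order with gaps of 665 and 626 kb. On chromosome 8, Irx3, Irx5 and Irx6 lie with gaps of 556 and 313 kb. In each group of 3, a gene with 180 or more counts over the Eed KO crypts thus lay next to one with 16 or fewer. Per kb of exon, the mean level in Eed KO crypts was 0.145 CPM for Irx1, 3.87 for Irx2 and 0.149 for Irx4, and 1.53 for Irx3 and 2.13 for Irx5. Six3 and Six2, 55.0 kb apart on chromosome 17, both rose, at 2.54 and 5.13 CPM per kb.

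**Figure D3:**
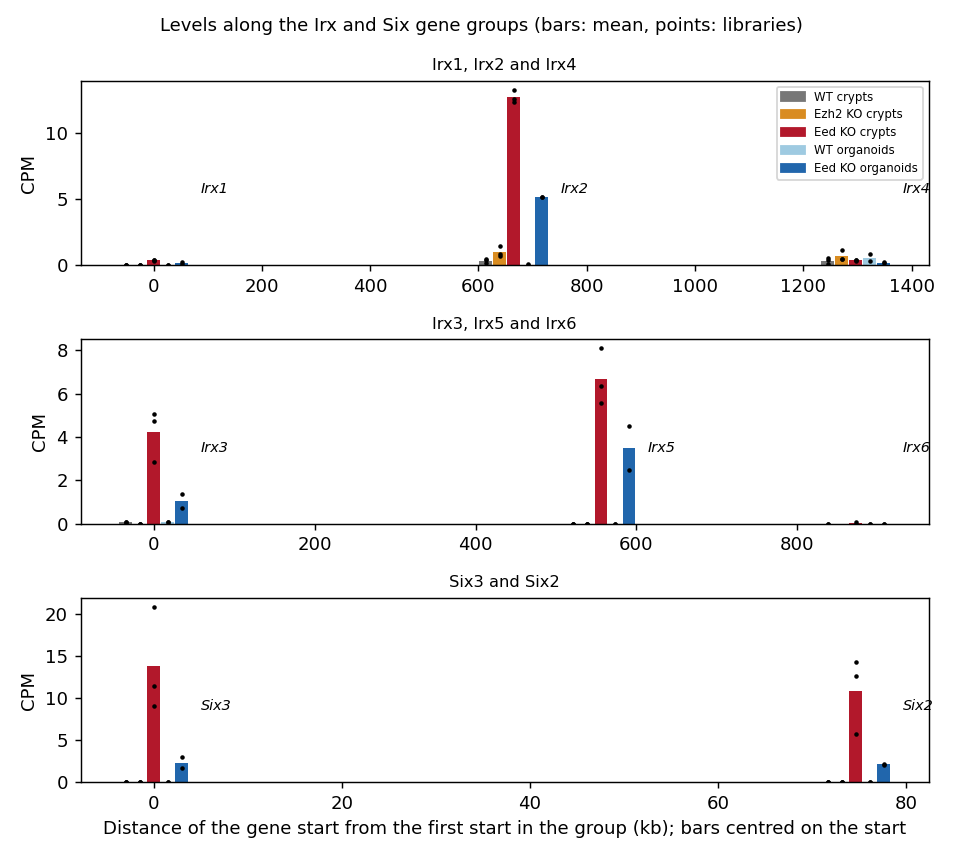
Mean CPM (bars) and libraries (points) of the Irx1-Irx2-Irx4, Irx3-Irx5-Irx6 and Six3-Six2 genes against the distance of each start from the first start of its group in kb, with 1 bar per sample group. The Eed KO bars of Irx2, Irx3, Irx5, Six3 and Six2 stand above those of Irx1, Irx4 and Irx6.

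Of the mesenchymal paired-type genes, both Alx genes rose, Prrx1 did not pass the test and Prrx2 was not tested. Alx4, a factor of skull and limb patterning, was at 23.1, 16.7 and 20.2 CPM in Eed KO crypts (297, 198 and 345 counts). WT crypts had 1 count in all and Ezh2 KO crypts none, a ratio to WT of 775 (95% counting interval 139 to 30660.1, adjusted p = 0.000266, edgeR). Alx1, a craniofacial factor, was at 2.80, 4.56 and 2.05 CPM against 0 in both other crypt groups, at least 38.5-fold above WT (adjusted p = 0.00429, edgeR). Shox2, a limb and heart pacemaker factor, had 32 and 29 counts in Eed KO crypts 385_1 and 385_2 and 4 in 440_1, with 0 in all WT and Ezh2 KO crypts. It differed 10.6-fold between the Eed KO crypts, the widest spread of the members with at least 30 counts there, and was not tested in the full set. Without Eed KO crypts 440_1 it was tested and was higher (adjusted p = 0.00238, edgeR), as it was within run 385 (adjusted p = 0.00159). Prrx1, a limb mesenchyme factor, was at 0.942 ± 0.479 CPM in WT and 0.967 ± 0.660 in Eed KO crypts (SD, n = 3, adjusted p = 0.999, edgeR). Prrx2 had at most 1 count in a library, and Phox2a, a factor of autonomic neurons, had 1 count in WT crypts 440_1 and no other.

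Within the runs, 17 of 20 members tested were higher in run 385 (2 libraries against 2), the 15 above plus Pax5 and Shox2. Of all 14053 genes tested there, 2326 were higher (16.6%) and 1664 lower (11.8%). In run 385 crypts the sex pattern went with genotype, as given above. Run 440 held 1 Eed KO and 1 WT library, so that its difference has no replicate check. Each of the 15 members was higher in the Eed KO than in the WT library of that run. Libraries of both runs were in the fit that picked the 15, so neither run is separate evidence.

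Loss of Ezh2 in crypts gave no member past the threshold in the same edgeR fit, in either direction. Of all genes, 0% were higher and 0.0208% lower. Over the 14406 genes 1179 had an unadjusted p under 0.05, and 4 of the 20 members did. These were Six4, Irx2, Pax5 and Pax1. Six4 was at 1.37, 0.887 and 1.20 CPM in Ezh2 KO crypts, below all 3 WT libraries, with a log2 fold change of -2.10 ± 0.37 (SE, adjusted p = 0.287, edgeR). DESeq2 called this 1 member (adjusted p = 0.00159), and 34 genes higher and 34 lower over all. All Ezh2 KO crypts were in run 440, where WT crypts 440_1 was the only WT library. Without WT crypts 440_1, the edgeR fit called 254 genes higher and 259 lower of 14705, with no member among them. The run term is then estimated from the Eed KO crypts alone. Irx2 was at 1.44, 0.697 and 0.882 CPM in Ezh2 KO crypts, above the 0.178 to 0.490 CPM of WT crypts, with a log2 fold change of 1.36 ± 0.50 (adjusted p = 0.59, edgeR). Pax1 had 0 counts in all Ezh2 KO crypts against 10 in WT crypts. Among the 15 members higher in Eed KO crypts, 12 had 0 counts in all Ezh2 KO crypts.

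The direct comparison of the knockouts gave 16 members higher in Eed KO than in Ezh2 KO crypts and none lower, against 12.0% and 8.05% of all genes. Here too, members at 0 in WT and Ezh2 KO crypts reached the minimum counts only through the Eed KO libraries. The comparison shares those libraries with the one against WT crypts, so the overlap is not separate evidence. DESeq2 called 14 of the 16, without Six2 (adjusted p = 0.0793) and Six3 (adjusted p = 0.081). Of the 16, 14 were also higher than WT, and Pax5 and Six4 were the others. Pax5 did not pass within run 440 (adjusted p = 0.0914). Six4 was higher by 2.11 ± 0.37 on the log2 scale (SE, adjusted p = 0.00567, edgeR), with 5.10 to 11.6 CPM in Eed KO and 0.887 to 1.37 CPM in Ezh2 KO crypts. Six5 did not pass (0.80 ± 0.33, adjusted p = 0.126, edgeR), although its ranges did not overlap. Eed KO crypts 440_1 was the 1 Eed KO crypt library sequenced with the Ezh2 KO libraries. Without it, 4 members were higher and 1, Pax8, lower, against 7.74% and 7% of all 14633 genes. The run term is then estimated from the WT crypts alone, where 9 of the 20 members tested with all libraries in are at 0.

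The organoid comparison asked whether the members respond in cultured epithelium after 10 days. 11 of 15 members tested were higher in Eed KO than in WT organoids: Pax2, Pax3, Pax9, Six2, Six3, Six4, Otx1, Otx2, Irx2, Irx5 and Alx4. Prrx1 was lower. Over all 12958 genes tested, 13.5% were higher and 4.63% lower. The median fitted log2 fold change was 6.92 over the 15 members and -0.005 over all genes, and the members' median log2 ratio was 4.27 with the 8 members at 0 in WT organoids set to their bound. Those 8 members reached the minimum counts only through the Eed KO organoids, so they could only come out higher. The count of 11 and the members' medians are raised by this. Crypts and organoids share no controls. 10 genes were higher in both, 66.7% of the crypt list and 90.9% of the organoid list. Over all genes 887 were higher in both, 45.9% of those higher in crypts and 50.6% of those higher in organoids. Of the 5 members higher in crypts alone, Alx1, Gsc, Irx3 and Pax1 were not tested in organoids.

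Per kb of exon, Pax3 had the highest level of the 11 in Eed KO organoids, 2.00 CPM. It was at 11.6 and 13.1 CPM in Eed KO organoids (146 and 163 counts) and at 0 in both WT organoids, at least 103-fold higher (adjusted p = 0.000343, edgeR). Otx1 was at 5.33 and 6.02 CPM with 1 count in WT organoids, a ratio of 142 (95% counting interval 25.1 to 5646, adjusted p = 0.000751, edgeR). Irx2 was at 5.17 and 5.14 CPM, also with 1 count in WT organoids, a ratio of 129 (95% counting interval 22.7 to 5132, adjusted p = 0.000914, edgeR). For each of these genes both Eed KO libraries lay above both WT libraries.

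Pax9 was at 4.06 and 5.94 CPM in Eed KO organoids and at 0 in WT, at least 41.7-fold higher (adjusted p = 0.00159, edgeR). The others at 0 in WT organoids had lower bounds of 29.3-fold for Irx5 (4.53 and 2.49 CPM), 24.0-fold for Pax2 (2.07 and 3.69), 19.3-fold for Six3 (1.67 and 2.97), 18.0-fold for Six2 (2.23 and 2.09), 14.0-fold for Otx2 (1.67 and 1.69) and 10.0-fold for Alx4 (0.955 and 1.45). Their adjusted p values lay between 0.00322 and 0.00972 (edgeR), and without Eed KO organoids 385_2 Alx4 did not reach the minimum counts. Gsc, Shox2, Pax1 and Alx1 had 23, 24, 14 and 9 counts in Eed KO organoids and 0 in WT, and Irx3 had 26 against 2. These 5 were below the minimum counts. Without that filter Gsc, Shox2, Pax1 and Irx3 were higher (adjusted p = 0.0021, 0.00188, 0.0135 and 0.0067, edgeR) and Alx1 did not pass (0.0661).

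Prrx1 was the only member called lower in the organoids with all libraries in. It was at 17.6 and 12.3 CPM in WT organoids and at 5.25 and 5.86 CPM in Eed KO organoids, so the groups did not overlap. The log2 fold change was -1.43 ± 0.25 (SE, adjusted p = 0.00843, edgeR), and without WT organoids 385_1 the adjusted p was 0.0505. Its level in WT organoids, 14.9 ± 3.71 CPM (SD, n = 2), was above the 0.533 to 1.47 CPM of WT crypts. The 11 mesenchyme and muscle markers summed to 4.95 to 10.3 CPM in WT organoids, 10.1 to 13.4 in Eed KO organoids and 59.9 to 764 in WT crypts, so the organoid ranges overlapped. In organoids 2 of the 11 were tested, of which Pdgfra was higher in Eed KO (adjusted p = 0.025) and Vim did not pass (adjusted p = 0.628, edgeR). In WT organoids Col1a2, Col3a1, Dcn, Lum and Des were at 0 counts, and the part of such cells in the Prrx1 values was not tested. Irx4, below the minimum counts, had 5 counts in Eed KO and 14 in WT organoids, a ratio of 0.357 (95% counting interval 0.101 to 1.05).

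**Figure D4:**
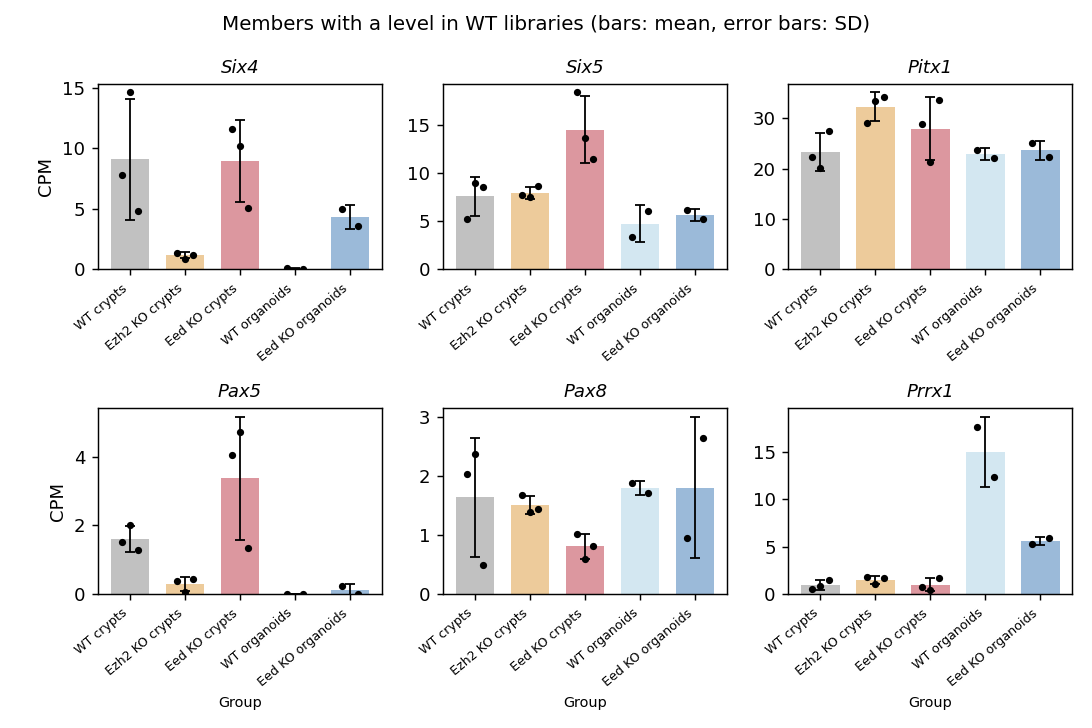
CPM of Six4, Six5, Pitx1, Pax5, Pax8 and Prrx1 in the 5 groups, with bars for the mean, error bars for the SD (n = 3 for crypts, n = 2 for organoids) and points for libraries. Six4 is near 0 in WT organoids only, Prrx1 is highest in WT organoids, and Pitx1 lies between 20.1 and 34.3 CPM throughout.

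Six4 was the only member whose response to Eed loss differed between crypts and organoids by the interaction test (0 higher and 1 lower of 22 members, against 1.13% and 2.99% of 14761 genes). In WT organoids it had 1 count in all, whereas Eed KO organoids were at 5.01 and 3.61 CPM, a ratio of 108 (95% counting interval 19.0 to 4303, adjusted p = 0.0014, edgeR). In crypts, WT and Eed KO libraries overlapped, as above. The interaction on the log2 scale was -6.47 ± 0.78 (SE, crypts minus organoids, adjusted p = 0.00176, edgeR), a value that rests on the 1 count in WT organoids. Immune markers, at 59.9 to 70.9 CPM in WT crypts, were at 1.28 to 1.71 CPM in WT and 3.13 to 3.18 CPM in Eed KO organoids, and mesenchyme and muscle markers differed between tissues as given above. Their part in the Six4 level of crypts was not tested. For members at 0 in WT crypts and WT organoids the interaction has no usable estimate, so the Eed KO groups were compared directly.

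Between Eed KO crypts and Eed KO organoids, 12 of 22 members tested were higher in crypts and 1, Prrx1, was lower, against 15.6% and 12.3% of all 14761 genes. Induction time and culture differ between these groups, as does the sex pattern (female in all 3 crypt libraries and male in both organoid libraries), and they cannot be told apart. Of the marker lists, 7 of 11 mesenchyme and muscle genes, 5 of 6 immune genes, both endothelial genes tested and 4 of 4 tuft cell genes were also higher in the Eed KO crypts, and 4 of 4 enterocyte genes were lower. The median log2 difference was 4.51 for mesenchyme and muscle and 6.58 for immune genes, and their part in the members' differences was not tested. The 12 were Pax1, Pax2, Pax5, Pax9, Six2, Six3, Six4, Six5, Irx2, Irx3, Alx1 and Alx4. By mean CPM all 15 members that rose in crypts were higher there than in Eed KO organoids, from 1.39-fold for Pax3 to 16.7-fold for Alx4, with a median of 4.07-fold. The 15 were picked through these same Eed KO crypt libraries, which favours higher values in crypts, so this count is a description only. Alx4, at 16.7 to 23.1 CPM in crypts and 0.955 to 1.45 in organoids, differed by 4.07 ± 0.48 on the log2 scale (SE, adjusted p = 0.000868, edgeR). Pax9 differed by 2.67 ± 0.33 (adjusted p = 0.00276), whereas Pax3 did not pass (0.59 ± 0.36, adjusted p = 0.276). Without Eed KO crypts 385_1, 4 of 22 members were higher in crypts and Prrx1 was lower. Of all 14651 genes tested in that fit, 9.86% were higher and 8.43% lower. Calls were also lost without either Eed KO organoid library, a fit that leaves 1 library in that group. Pax5, Pax9 and Alx4 passed the threshold under all alternatives run. Irx2 and Six5, among others, did not, with log2 differences of 1.11 to 1.24 (Irx2) and 1.10 to 1.49 (Six5) where the call was lost. Across the 24 members with a count in both groups, CPM per kb of exon gave a Spearman rho of 0.77, a description over genes that share libraries.

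**Figure D5:**
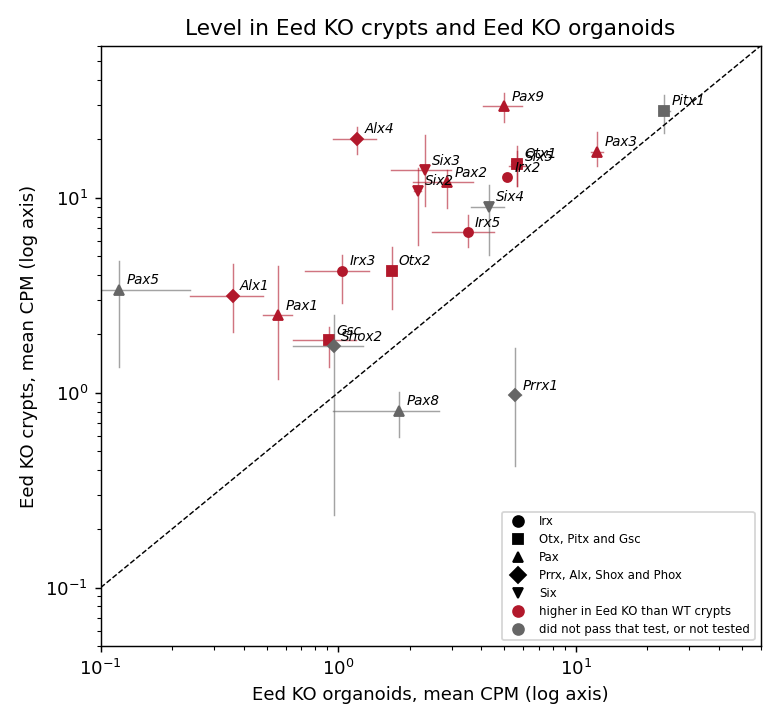
Mean CPM of 21 members in Eed KO crypts (vertical, log axis) against Eed KO organoids (horizontal, log axis), with lines spanning the libraries and a dashed line of equal level. The 15 members that rose in crypts all lie above the dashed line, Alx4 farthest from it, Prrx1 and Pax8 lie below it, and the Pax5 line runs to the axis because 1 organoid library had 0 counts.

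Within 100 kb of the 15 members that rose in crypts lay 41 genes that are not members, of which 20 were tested and 5 were higher (Crnde, Slc25a21, Six3os1, Dmwd and Foxa3) and none lower, against 13.4% and 10.6% of all genes. Crnde, a long non-coding RNA that starts 1676 bases from Irx5 on the opposite strand, had 63 counts in Eed KO and 1 in WT crypts. Six3os1, antisense to Six3, had 235 counts in Eed KO and 0 in WT and Ezh2 KO crypts (adjusted p = 0.00177, edgeR). Slc25a21, which overlaps the end of Pax9 on the opposite strand, had 104 counts against 6 in WT crypts. Dmwd and Foxa3 both lie within 100 kb of Six5, the member with the most tested genes in its window. The Six5 call itself did not hold under all alternatives run. Ext2, which overlaps Alx4 on the opposite strand, did not pass (log2 fold change -0.25, adjusted p = 0.339). The library kit keeps strand. The sources used here do not give whether counting used it, so Pax9, Six3, Irx3, Pax1 and Alx4 may share reads with their antisense partners.

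Other genes of the same families were read from a separate list of 19, of which 17 were listed and 5 tested in crypts. In Eed KO crypts 3 were higher (Pax6, Dmbx1 and Mkx) and 2 lower (Pax4 and Isx), against 13.4% and 10.6% of all genes. In organoids Pax6, Dmbx1 and Mkx were higher and Isx was lower. Pax6, an eye, brain and endocrine factor, was at 4.05 ± 0.835 CPM in WT and 22.3 ± 6.26 in Eed KO crypts (SD, n = 3), a log2 fold change of 2.43 ± 0.26 (SE, adjusted p = 0.000478, edgeR). Isx, an intestine-specific homeobox gene that controls vitamin A uptake, was at 94.3 ± 23.1 CPM in WT and 25.2 ± 24.0 in Eed KO crypts. Pax4, an endocrine lineage factor, was at 1.25 ± 0.611 and 0.355 ± 0.106 CPM. Median log2 fold change was 1.90 over the 5 genes in crypts, against -0.04 over all genes.

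Partner proteins of Pax, Six-family and Otx factors made a list of 14, of which 12 were tested in crypts. 6 were higher in Eed KO crypts (Eya2, Dach2, Tle1, Tle3, Meis1 and Meis2) and 2 lower (Dach1 and Tle4), against 13.4% higher and 10.6% lower of all genes, with a median log2 fold change of 0.72. Eya2, a co-activator that Six-family proteins recruit, was at 0.456 ± 0.247 CPM in WT, 2.08 ± 0.820 in Ezh2 KO and 39.2 ± 10.6 in Eed KO crypts (SD, n = 3), a log2 fold change against WT of 6.36 ± 0.45 (SE, adjusted p = 0.000107, edgeR). Dach1, a co-repressor in the same network, was at 52.8 ± 15.3 CPM in WT and 17.9 ± 5.75 in Eed KO crypts. Meis2, a homeodomain cofactor, was at 1.36 ± 1.44 and 16.7 ± 3.79 CPM in crypts and at 1.45 ± 0.715 and 19.5 ± 0.151 in organoids (n = 2). In organoids Eya2, Tle3, Meis1 and Meis2 were higher and none of the 11 tested was lower, against 13.5% and 4.63% of all genes.

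The endocrine lineage list of 8, genes that act with Pax4 and Pax6, had 1 gene higher in Eed KO crypts (Nkx2-2) and 4 lower (Neurog3, Neurod1, Insm1 and Chgb), against 13.4% and 10.6% of all genes, with a median log2 fold change of -1.24. In Eed KO organoids Isl1, Chga and Chgb were higher and none was lower, against 13.5% and 4.63% of all genes. Chgb, a granin of hormone granules, was at 465 ± 35.5 CPM in WT and 109 ± 13.7 in Eed KO crypts (SD, n = 3), and at 361 ± 45.4 in WT and 678 ± 119 in Eed KO organoids (n = 2). Of the 4 PRC2 genes listed, Eed, Ezh2 and Suz12 were lower in Eed KO crypts, and Eed and Suz12 were lower in Eed KO organoids.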

How the data were processed

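The libraries were poly(A) RNA prepared with a strand-keeping kit, per the labels' protocols. The authors deposited whole-number read counts per Ensembl gene, as 1 table for each sequencing run. The submitters' processing notes name GRCm38 as build, and HTSeq, DESeq2, Bowtie 0.12.9 and TopHat2 2.0.12 as tools without their roles. Fits across runs used the 21420 genes in both tables, and at most 0.196% of a library's counts lay outside them. Coordinates are those of the deposited tables.

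Counts were tested with edgeR 4.0.16 (R 4.3.3, limma 3.58.1): TMM scaling, genes kept by a minimum count of 10 and a minimum total of 15, and the robust quasi-likelihood F test. p-values were adjusted over all genes by Benjamini-Hochberg with a threshold of 0.05. A single model held the 9 crypt libraries, with terms for run and group, the 4 organoid libraries by group, and all 13 for the interaction and the direct contrast of the Eed KO groups. Alternatives were DESeq2 1.42.0 (size factors, then its test), no low-count filter, each library left out, each run alone (run 440 has 1 WT and 1 Eed KO library), no Ezh2 KO libraries, the replicate block, and CPM on total counts. The code was checked on simulated counts. Lower bounds use a floor of 3 counts over a group, and ratio intervals are exact 95% intervals. PCR reads are not independent molecules, so both cover counting error only. At the depths given, 1 count is under 0.1 CPM.

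Same-numbered WT and Eed KO crypt libraries deviated together from their group means (r = 0.17, 0.36 and 0.33 for 385_1, 385_2 and 440_1). The replicate block, an alternative fit, treated the numbers as pairs, while the main fits had no block. No other WT or Eed KO crypt library was in run 440, so run and pair cannot be told apart for 440_1. A differently numbered pair, WT 385_2 and Eed KO 385_1, had r = 0.35, and within run 385 alone same-numbered libraries had r = 0.145. In the paired fit 14 of 19 members were higher, against 7.58% of all genes. The same fit without the block also had 14 higher, against 10.6% of all genes. Members and gene lists were chosen with earlier results of these data known. All 29 members are accounted for. Adjusted p values are given, singly or as a range, for members past the threshold against WT. For the other comparisons statistics are given for some members only. Six6 was not analysed here. Some genes of the list of other family genes are not reported here, and its counts and medians were taken without them.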

Additional observations from a re-analysis of the deposited data

Results flagged for a closer look

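Six4 was singled out because its response to Eed loss differed between crypts and organoids in a test of that difference. The interaction, crypts minus organoids on the log2 scale, was -6.47 ± 0.78 (SE, adjusted p = 0.00176, edgeR). Six4 was at 9.10 ± 5.03 CPM in WT and 8.97 ± 3.42 in Eed KO crypts (SD, n = 3), and at 0.0375 ± 0.0531 in WT and 4.31 ± 0.988 in Eed KO organoids (n = 2). All 14 alternatives kept the direction and the call, with adjusted p values from 0.000427 to 0.0142. Leaving out WT organoids 385_1, which holds the single WT organoid count, gave -8.895, and leaving out WT organoids 385_2 gave -5.69. No group held enough libraries for a test of single outlying libraries.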

How the results depend on the processing

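Of 57 calls of a member in a comparison, 29 held under all alternatives in which the member was tested. Alx4 in organoids, among these 29, was below the minimum counts without Eed KO organoids 385_2. Members called with a library left out ranged from 14 to 17 for Eed KO against WT crypts, from 5 to 16 for Eed KO against Ezh2 KO crypts (5 without Eed KO crypts 440_1), from 11 to 14 in organoids, from 4 to 15 for Eed KO crypts against Eed KO organoids, and were 0 for Ezh2 KO against WT crypts and 1 for the interaction in all cases. The share of all genes called moved in these fits too. With a crypt library left out, 8.64% to 16.5% were higher in Eed KO than in WT crypts and 5.48% to 13.3% lower. Eed KO against Ezh2 KO crypts gave 7.74% to 11.8% higher and 4.02% to 8.81% lower. Eed KO crypts against Eed KO organoids gave 9.86% to 20% higher and 8.43% to 14.7% lower. Fits that leave 1 organoid library in a group are left out here. The ranges of member calls are thus not a property of the members alone. DESeq2 called 1 member lower in Ezh2 KO crypts. The replicate block gave 14 calls in crypts, as did the same fit without the block (both without the Ezh2 KO libraries), and neither called Six5. In organoids, where 2 pairs share only a number (r = 0.26), the replicate block gave 12 calls. Of all 12958 genes, 2461 were higher and 1441 lower in that fit. Only uncalled folds changed sign. For Eed KO against WT crypts, log2 values with DESeq2 size factors and DESeq2's test were -0.00896 and -0.0114 for Prrx1 and -0.0144 and -0.0148 for Six4; Six4 was at -0.0205 with no filter, -0.0128 without the Ezh2 KO libraries and -0.0695 in run 385, and 0.76 for Pax8 in run 440. For Ezh2 KO against WT crypts, run 440 gave 0.0137 for Prrx1 and -0.11 for Six5. In organoids Pax8 was at -0.0021 with no filter and -0.067 with the replicate block. With a library left out, ranges that crossed 0 were, for Eed KO against WT crypts, -0.23 to 0.21 (Prrx1) and -0.22 to 0.31 (Six4); for Ezh2 KO against WT crypts, -0.356 to 0.0926 (Prrx1), -0.58 to 0.86 (Pax8) and -0.0057 to 0.639 (Six5); for the knockouts in crypts, -0.11 to 0.11 (Pitx1) and -0.29 to 0.25 (Prrx1). In organoids they were -0.0238 to 0.119 (Pitx1), -0.91 to 0.57 (Pax8) and -0.11 to 0.76 (Six5), for Eed KO crypts against organoids -0.0839 to 0.216 (Pitx1) and -1.32 to 0.14 (Pax8), and for the interaction -1.45 to 0.12 (Pax8). The causes were not tested. CPM on total counts moved no level over 1.12-fold. Leaving out an organoid library leaves 1 in its group, which is assumed to vary like the other. Pax7, Irx1, Irx4, Pitx3, Prrx2, Shox2 and Phox2a were below the minimum counts in the main crypt fit, so their response was not tested there. Irx6 was left out of that fit because it was listed for run 385 only.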
